A study of Mus musculus with 40 samples.

Results

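Multipotent progenitors (MPPs) sorted from the bone marrow of mice labelled HIRA KO were compared with MPPs from mice labelled WT. Levels are FPKM, a read count scaled by exon length and by a factor per library, so a level per length. The comparison covered every gene that reached 1 FPKM in at least 4 of the 8 libraries. That filter left 13916 of the 26598 genes in the table. The comparison uses 8 of the 40 libraries of the series, 4 labelled KO and 4 labelled WT, which the study's design counts as biological replicates. All mice were C57BL/6, and mice of both genotypes received 2 intraperitoneal doses of 20 µg of poly(I:C), a double-stranded RNA mimic that raises type I interferon, with a day left out between the doses. They were killed 1 week after the first dose, and 2500 cells were sorted per population. The poly(I:C) served to induce deletion of Hira in blood-forming cells of the KO mice. The labels spell out the driver, Mx1-Cre, and the floxed Hira allele only for a second cohort that also carried Rosa26-M2rtTA and TetOP-H2B-GFP. Mx1-Cre is a recombinase whose promoter responds to interferon, and it acts in many cells of the marrow and beyond, not only in stem and progenitor cells. The labels do not say whether the WT mice carried Mx1-Cre, nor give ages, and the gates that define MPPs are not given in the sources used here. "KO" and "WT" in what follows stand for those genotype labels.

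MPPs are the dividing, short-lived progenitors below the haematopoietic stem cell (HSC). They feed the erythroid, megakaryocytic, granulocytic, mast cell and lymphoid branches. HIRA is a histone chaperone: together with UBN1 or UBN2 and CABIN1 it receives histones from ASF1A and places the variant H3.3 into chromatin outside of DNA replication. Replicating cells deliver the canonical H3 through another route, with ASF1B or ASF1A and the CAF-1 complex.

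The KO libraries held 31456750 to 33298556 reads in genes and the WT libraries 18887707 to 33508787, recovered as whole numbers from the FPKM steps. The markers of the sorted cells were mixed between stem and progenitor genes. The progenitor genes Kit, Cd34 and Ly6a lay at or above 53.1 FPKM in all 8 libraries, Flt3 at or above 30.8 FPKM, and the stem cell marker Slamf1 stayed at or below 0.563 FPKM. Other genes high in stem cells were present in all 8 libraries, Hlf at 36.5 to 69.7 FPKM, Procr at 7.24 to 21.9 FPKM and Mecom at 2.15 to 3.98 FPKM. Defining genes of B cells and stroma were near 0, with summed levels of 0.213 to 1.22 FPKM in KO and 1.13 to 4.61 FPKM in WT libraries over 4 B cell markers, and at most 0.491 FPKM over 3 stromal markers. Markers of mature neutrophils were present in every library, from 451 to 4211 FPKM summed over 5 genes in KO and from 1243 to 3699 FPKM in WT. Xist lay between 57.2 and 89.1 FPKM in all 8 libraries and the Y-linked genes Ddx3y, Kdm5d and Uty at or below 0.022 FPKM, so all libraries read as female. KO library 4 stood apart from the others. It had the lowest mean correlation with its own group, 0.963 where the other libraries had 0.971 to 0.976, and limma's array weights gave it 0.383 where the others had 0.8 to 1.66. For the gene lists, values without it are given where they differ by more than 1.5 times.

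Hira itself did not separate the groups. It had 1.45, 1.35, 1.17 and 0.797 FPKM in the KO libraries, against 1.36, 1.09, 1.66 and 1.30 FPKM in the WT libraries. The groups overlapped, and only KO library 4 lay below every WT library. The means were 1.19 ± 0.286 FPKM in KO MPPs and 1.35 ± 0.236 FPKM in WT MPPs (SD, n = 4 each), and an exact two-sided permutation test over all 70 regroupings gave p = 0.457, where the smallest possible value is 0.0286. The value counts reads over the whole gene. The labels do not name the deleted exons, and recombined alleles can still give RNA, so this level is no check of the genotype labels.

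Across the 13916 genes, 15 passed the test (0.108%; limma-trend on log2(FPKM + 1), Benjamini-Hochberg adjusted p under 0.05), 4 higher (0.0287%) and 11 lower (0.079%) in KO MPPs. Among the 11 lower genes, 1700003C15Rik, Gm43492, Trbd1, Trbj1-5 and Mir5123 met the filter through the WT libraries alone. They could only be lower, so the split by direction is partly set by the filter. Without adjustment 2305 genes (16.6%) had p under 0.05 with limma, 1221 higher (8.77%) and 1084 lower (7.79%). In 707 genes (5.08%) every KO library lay above every WT library, and in 673 (4.84%) every KO library lay below. Without KO library 4, 212 genes (1.52%) passed, 114 higher (0.819%) and 98 lower (0.704%), and all 15 were among them. The count was 71 without WT library 3, 11 without WT library 1, 6 without KO library 1, 5 without KO library 2, 4 without KO library 3 and 3 without WT library 4. It was 0 without WT library 2, where limma still gave 2048 genes with unadjusted p under 0.05. The groups did not overlap in any of the 15 genes, so leaving out a single library could not change a direction. Only Tmem158, Cpa3 and 1700003C15Rik kept passing in 7 of the 8 refits, all except the one without WT library 2.

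**Figure D1:**
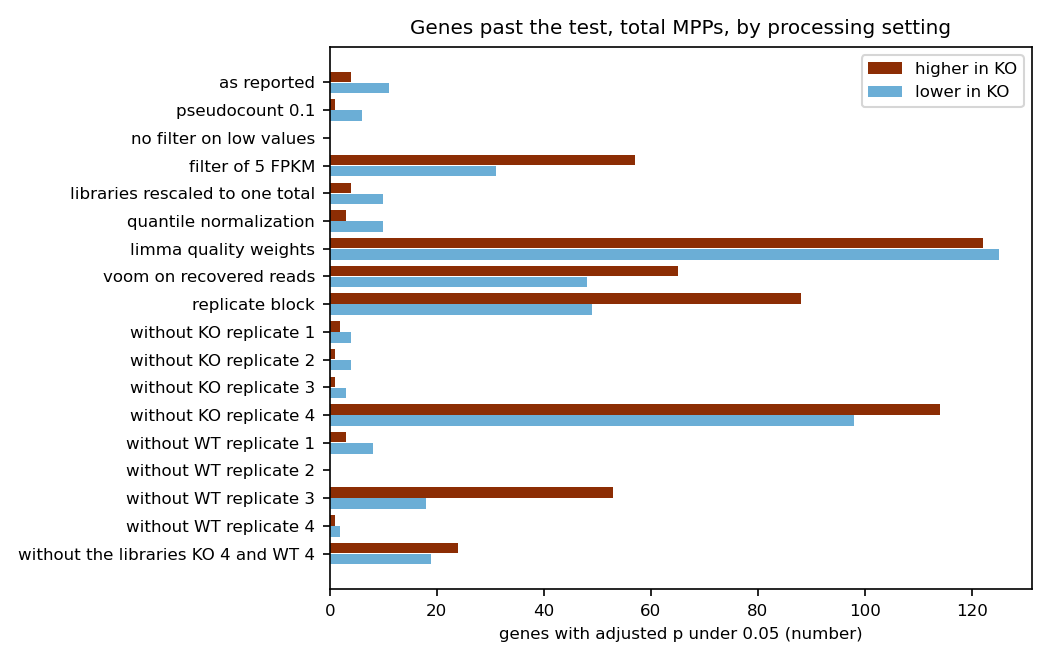
Number of genes with adjusted p under 0.05 in MPPs under each processing setting, as bars for genes higher and lower in KO, starting at 0. The count is 15 as reported, 212 without KO library 4 and 0 without WT library 2 or without a filter on low values.

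**Figure D2:**
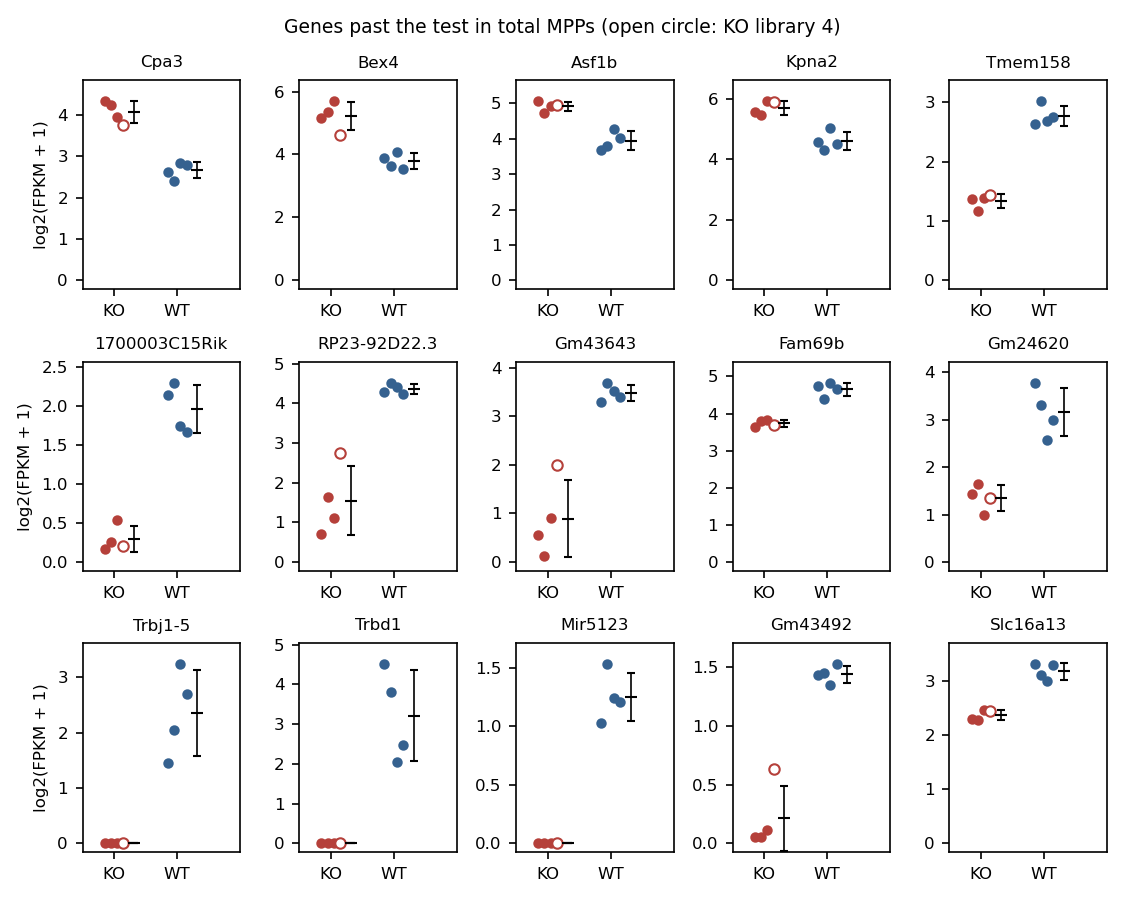
Level of each of the 15 genes past the test in each MPP library, as log2(FPKM + 1), KO on the left and WT on the right of each panel; bars give the mean and SD of 4 libraries, and the open circle is KO library 4. The 4 genes higher in KO come first, and in all 15 panels the KO and WT points do not overlap. 1700003C15Rik, Gm43492, Trbd1, Trbj1-5 and Mir5123 met the filter through the WT libraries alone and could only be lower in KO.

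Of the 4 genes that rose, Cpa3 carried the clearest difference. It encodes carboxypeptidase A3, a granule protease of mast cells that early progenitors also transcribe. Cpa3 (chr3:20215620-20242181, minus strand, mm10) had 19.1, 17.9, 14.4 and 12.6 FPKM in the KO libraries, against 5.200, 4.30, 6.11 and 5.96 FPKM in the WT libraries. Every KO library lay above every WT library, and the means were 16.02 ± 3.04 FPKM in KO MPPs and 5.39 ± 0.8287 FPKM in WT MPPs (SD, n = 4 each). The log2 difference was 1.40 (95% interval 1.06 to 1.75, adjusted p = 0.0161 with limma). Bex4, a small brain-expressed X-linked family member, had 35.0, 39.9, 50.4 and 23.7 FPKM in the KO libraries, against 13.8, 11.5, 15.98 and 10.7 FPKM in the WT libraries. The KO libraries varied more than the WT libraries here, with KO library 4 the lowest, and the log2 difference was 1.41 (0.95 to 1.88, limma adjusted p = 0.0424).

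The other genes that rose act in dividing cells. Asf1b, the histone H3-H4 carrier that feeds replication-coupled assembly, had 32.1, 25.6, 29.1 and 30.1 FPKM in the KO libraries, against 11.7, 13.0, 18.4 and 15.3 FPKM in the WT libraries. Its KO libraries sat within a narrow band and its mean was 1.96-fold that of WT on the log2(FPKM + 1) scale (0.65 to 1.29 in log2, limma adjusted p = 0.0429). Kpna2, the importin alpha that carries cargo into the nucleus and whose transcript peaks late in the cell cycle, had 46.1, 43.1, 59.2 and 58.2 FPKM in the KO libraries, against 22.8, 18.9, 31.9 and 21.7 FPKM in the WT libraries. Its log2 difference was 1.09 (0.72 to 1.47, limma adjusted p = 0.0475). The promoters of Asf1b and Kpna2 are shown with those of the mitotic genes Plk1 and Cdc20 because all 4 hold motifs of late cell cycle promoters. TTTGAA is the core of the cell cycle homology region bound by the DREAM complex, and CCAAT is the NF-Y motif. Each window runs from 250 bases before to 50 bases after the RefSeq start (GRCm38.p6), is written 5′ to 3′ along the gene, and has TTTGAA and CCAAT in capitals on either strand, where they do not overlap. The windows are chr8:83955444-83955743 on the plus strand, chr11:106999476-106999775 on the minus strand, chr7:122159185-122159484 on the plus strand and chr4:118437294-118437593 on the minus strand.
Asf1b: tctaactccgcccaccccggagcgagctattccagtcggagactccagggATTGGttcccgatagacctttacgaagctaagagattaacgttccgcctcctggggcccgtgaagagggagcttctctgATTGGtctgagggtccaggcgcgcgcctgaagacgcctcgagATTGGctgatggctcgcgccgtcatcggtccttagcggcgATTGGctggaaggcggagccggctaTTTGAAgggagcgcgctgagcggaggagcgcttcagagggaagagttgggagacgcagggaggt
Kpna2: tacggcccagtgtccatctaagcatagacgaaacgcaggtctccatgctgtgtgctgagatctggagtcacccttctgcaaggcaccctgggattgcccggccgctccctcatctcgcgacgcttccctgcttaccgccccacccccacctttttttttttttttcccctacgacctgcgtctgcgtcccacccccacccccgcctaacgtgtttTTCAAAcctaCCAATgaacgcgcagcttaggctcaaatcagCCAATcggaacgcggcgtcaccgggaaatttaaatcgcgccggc
Plk1: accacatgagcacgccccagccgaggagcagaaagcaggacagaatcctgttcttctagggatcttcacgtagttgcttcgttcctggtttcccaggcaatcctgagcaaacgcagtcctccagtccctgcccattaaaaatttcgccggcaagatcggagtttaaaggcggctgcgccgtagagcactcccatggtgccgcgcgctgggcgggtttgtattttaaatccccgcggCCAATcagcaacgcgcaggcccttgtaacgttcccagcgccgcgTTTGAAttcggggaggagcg
Cdc20: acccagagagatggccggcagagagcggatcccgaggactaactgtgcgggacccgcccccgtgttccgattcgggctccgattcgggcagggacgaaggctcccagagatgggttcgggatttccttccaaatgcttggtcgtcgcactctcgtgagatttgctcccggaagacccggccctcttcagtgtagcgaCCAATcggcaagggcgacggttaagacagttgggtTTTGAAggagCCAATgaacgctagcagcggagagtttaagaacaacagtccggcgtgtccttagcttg
Asf1b holds 4 CCAAT matches and Plk1 holds 1, while Kpna2 and Cdc20 hold 2 each, and every one of the 4 windows holds a single TTTGAA. Among the 67 mitosis genes with a promoter in the table, TTTGAA occurred in 42 (62.7%), against 14.7% of 8807 tested genes with a promoter and 20.2% of all 27025 promoters. CCAAT occurred in 48 of the 67 (71.6%), against 43.8% of tested genes and 41.1% of all promoters. A high CCAAT share was not limited to lists that leaned higher in KO. MHC class I presentation genes leaned lower, and 13 of their 18 promoters held CCAAT (72.2%). Interferon-stimulated genes also leaned lower, with CCAAT in 18 of 45 promoters. DNA replication genes leaned higher, with CCAAT in 30 of 51 (58.8%). The TTTGAA and CCAAT counts are letter matches and not binding sites.

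The mitosis genes leaned higher in KO MPPs as a group, though none passed the test. Of the 79 tested mitosis genes, 77 had a positive difference, where 50.4% of all tested genes did. The median log2 difference was 0.62, against 0.00 for all tested genes, and in 36 of 79 every KO library lay above every WT library (5.08% of all genes). With limma 0 passed, and 56 had unadjusted p under 0.05 and were higher (8.77% of all genes). Voom on the recovered reads passed 7, all higher (65 of all 13916 genes). Without KO library 4 the median was 0.53 and 8 genes passed, all higher (0.819% of all genes). Leaving out each library in turn kept the median between 0.53 and 0.71. The mean level of the list, on the log2(FPKM + 1) scale, was 3.56, 3.53, 3.93 and 3.85 in the KO libraries and 2.89, 3.15, 3.43 and 3.06 in the WT libraries, without overlap.

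Within the list the medians differed by role, which was not tested. Cyclins and kinases had a median difference of 0.79 over 14 genes, all positive, and kinetochore and centromere genes 0.69 over 19, all positive. Spindle and cytokinesis genes had 0.52 over 24. The 8 genes of the anaphase-promoting complex and chromatid separation had 0.16, with 6 positive, or 0.30 without KO library 4. Ccnb1, the mitotic cyclin B1, had 21.5, 22.2, 33.5 and 31.96 FPKM in the KO libraries, against 5.58, 11.3, 14.9 and 9.20 FPKM in the WT libraries. The lowest KO value was above the highest WT value, with a log2 difference of 1.37 and limma adjusted p = 0.0514. Birc5, survivin of the chromosomal passenger complex, had 24.6, 32.7, 36.3 and 29.9 FPKM in the KO libraries, against 8.51, 13.9, 19.9 and 12.7 FPKM in the WT libraries, a log2 difference of 1.15 (limma adjusted p = 0.0524). Plk1, the polo kinase that drives mitotic entry, averaged 16.1 ± 4.88 FPKM in KO MPPs and 6.84 ± 3.05 FPKM in WT MPPs (SD, n = 4 each), with adjusted p = 0.0788 from limma. WT library 3 was the highest of the WT libraries for all 3 genes, and WT library 1 the lowest. Mad2l1, a spindle checkpoint protein, averaged 11.6 ± 1.51 FPKM in KO MPPs and 6.00 ± 1.56 FPKM in WT MPPs (SD, n = 4 each), and Zwilch, of the kinetochore RZZ complex, averaged 4.77 ± 0.527 FPKM in KO MPPs and 2.19 ± 0.540 FPKM in WT MPPs (SD, n = 4 each), both with limma adjusted p near the threshold (0.0528 and 0.0514). Cdc20, the activator of the anaphase-promoting complex, overlapped between the groups, with 27.7, 26.6, 46.0 and 60.7 FPKM in the KO libraries, against 14.9, 23.96, 29.8 and 25.3 FPKM in the WT libraries; KO library 4 was the highest. Mki67, the common proliferation marker, also overlapped, at 2.09 ± 0.429 FPKM in KO MPPs and 1.30 ± 0.644 FPKM in WT MPPs (SD, n = 4 each).

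DNA replication genes leaned the same way with smaller sizes. Of 63 tested, 59 were positive (50.4% of all genes), the median log2 difference was 0.35, and 11 had KO libraries wholly above WT (5.08% of all genes). None passed with limma, and 26 had unadjusted p under 0.05 and were higher (8.77% of all genes). Voom passed 5, all higher (65 of all 13916 genes), and 4 passed without KO library 4, all higher (0.819% of all genes). The 8 genes of nucleotide supply had a median of 0.55 and the 9 tested cyclin E, cyclin A and E2F genes 0.65, while polymerases, clamp and fork proteins had 0.20 over 23 genes, or 0.09 without WT library 2. Rrm2, the regulated subunit of ribonucleotide reductase, had 54.6, 64.4, 69.3 and 59.5 FPKM in the KO libraries, against 24.5, 28.9, 44.5 and 29.7 FPKM in the WT libraries. WT library 3 came closest to the KO values, and the log2 difference was 0.97 (0.59 to 1.34, limma adjusted p = 0.0514). Slbp, which binds the stem-loop of replication-dependent histone mRNAs, had 43.4, 48.0, 53.8 and 46.4 FPKM in the KO libraries, against 31.4, 29.9, 33.2 and 26.6 FPKM in the WT libraries (log2 difference 0.65, limma adjusted p = 0.0514). Rfc4, of the clamp loader, averaged 39.4 ± 6.44 FPKM in KO MPPs and 23.6 ± 2.60 FPKM in WT MPPs (SD, n = 4 each), and Ccne2, cyclin E2, averaged 5.61 ± 0.616 FPKM in KO MPPs and 3.06 ± 0.481 FPKM in WT MPPs (SD, n = 4 each), each with adjusted p = 0.0573 from limma. Ccna2, cyclin A2, had 14.2, 14.8, 20.3 and 16.1 FPKM in the KO libraries, against 6.17, 7.67, 11.3 and 4.34 FPKM in the WT libraries. Pcna, the sliding clamp, overlapped between groups at 165 ± 21.3 FPKM in KO MPPs and 125 ± 32.03 FPKM in WT MPPs (SD, n = 4 each). Outside the lists, 2810417H13Rik, the PCNA-associated factor, had 27.7, 25.6, 34.8 and 21.2 FPKM in the KO libraries, against 13.7, 10.96, 15.5 and 12.4 FPKM in the WT libraries, a log2 difference of 0.99 (limma adjusted p = 0.0514).

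The histone supply genes follow from the study's question on H3.3. The H3.3 genes H3f3a and H3f3b were not lower: H3f3b averaged 558 ± 49.0 FPKM in KO MPPs and 442 ± 52.6 FPKM in WT MPPs (SD, n = 4 each) (log2 difference 0.34, 0.05 to 0.63) and H3f3a averaged 77.6 ± 4.00 FPKM in KO MPPs and 65.9 ± 7.42 FPKM in WT MPPs (SD, n = 4 each) (0.24, -0.01 to 0.49), with overlapping groups. The partners of HIRA overlapped as well. Ubn1 averaged 14.4 ± 2.22 FPKM in KO MPPs and 13.1 ± 1.13 FPKM in WT MPPs (SD, n = 4 each) and Ubn2 averaged 3.48 ± 0.746 FPKM in KO MPPs and 3.26 ± 0.241 FPKM in WT MPPs (SD, n = 4 each). Cabin1 averaged 7.70 ± 0.856 FPKM in KO MPPs and 10.1 ± 1.18 FPKM in WT MPPs (SD, n = 4 each), a log2 difference of -0.35 with limma adjusted p = 0.222. Asf1a, which hands histones to HIRA and to CAF-1, had 42.5, 33.0, 31.0 and 38.2 FPKM in the KO libraries, against 24.6, 28.5, 27.4 and 20.7 FPKM in the WT libraries (log2 difference 0.50, limma adjusted p = 0.133), so its KO libraries lay above its WT libraries without passing. Of 21 histone chaperones 16 were positive (50.4% of all genes), with a median of 0.18, and Asf1b passed (0.0287% of all genes passed as higher). At unadjusted p under 0.05 with limma, 4 were higher (8.77% of all genes) and 2 lower (7.79%). KO libraries lay wholly above WT in 3 (5.08% of all genes) and wholly below in 1 (4.84%). Of 58 tested replication-dependent histone genes 45 were positive with a median of 0.23, none passed with limma or voom, and 11 had unadjusted p under 0.05 and were higher (8.77% of all genes). The median was 0.13 without WT library 1. These histone genes are near-identical copies of each other and mostly lack poly(A) tails, so their counts in poly(A) libraries are uncertain one by one.

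**Figure D3:**
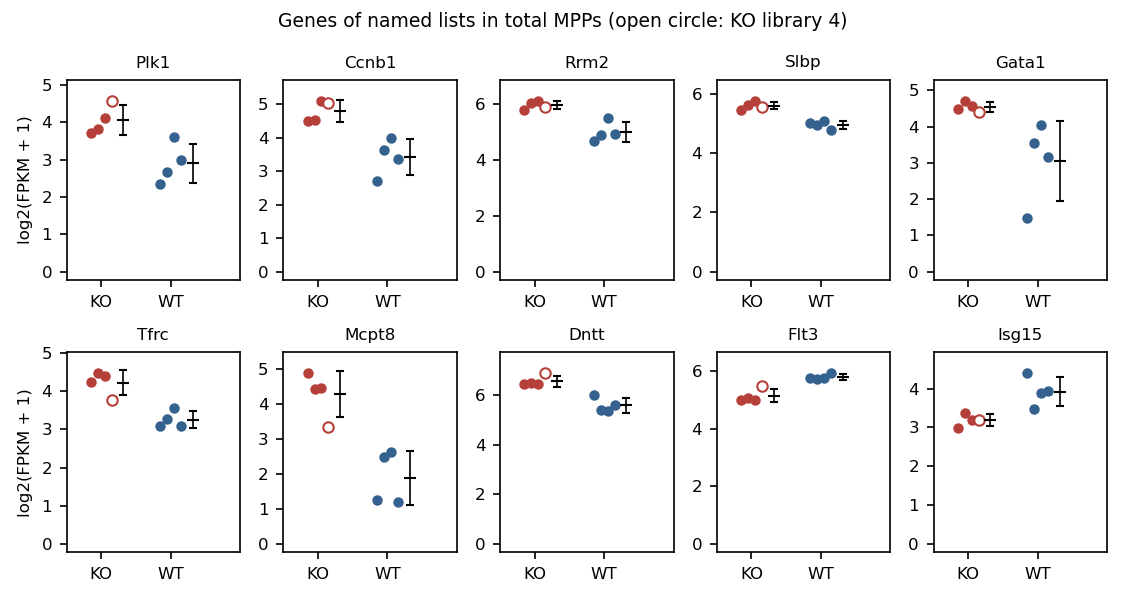
Level of 10 genes of the lists in each MPP library, as log2(FPKM + 1), KO left and WT right in each panel; bars give the mean and SD of 4 libraries, and the open circle is KO library 4. Groups do not overlap in any of the panels, and none of these genes passed the test over 13916 genes.

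Genes of the p53 response and of DNA repair were mostly positive (50.4% of all genes were), and none passed with limma. Cdkn1a, the CDK inhibitor p21 and a p53 target, had 7.80, 14.3, 10.6 and 4.02 FPKM in the KO libraries, against 2.61, 2.42, 5.08 and 3.88 FPKM in the WT libraries. KO library 4 lay inside the WT range, and the limma adjusted p was 0.136, or 0.0308 without that library. Perp, a p53 target of cell adhesion, averaged 4.44 ± 1.49 FPKM in KO MPPs and 1.750 ± 0.774 FPKM in WT MPPs (SD, n = 4 each). Its limma adjusted p was 0.112. Over 19 p53 targets the median log2 difference was 0.08, with 14 positive. It ran from 0.03 without WT library 3 to 0.14 without WT library 2. Without KO library 4, 2 of the genes passed, higher (0.819% of all genes). Fancd2, of the Fanconi repair pathway, averaged 2.01 ± 0.512 FPKM in KO MPPs and 0.953 ± 0.242 FPKM in WT MPPs (SD, n = 4 each). The limma adjusted p of Fancd2 was 0.149. Of 20 DNA repair genes 17 were positive with a median of 0.27.

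Energy and protein turnover genes leaned the same way by smaller amounts. Of 76 oxidative phosphorylation genes, 74 were positive with a median log2 difference of 0.28 (0.37 without KO library 4). None passed with limma or voom, and 1 passed without KO library 4, higher (0.819% of all genes). At unadjusted p under 0.05, 17 were higher (8.77% of all genes). The mean level of the list was 6.86, 7.04, 7.00 and 6.55 in KO and 6.71, 6.53, 6.76 and 6.43 in WT libraries, so KO library 4 lay among the WT libraries. Complex IV had a median of 0.33 over 11 genes and ATP synthase 0.24 over 15, which were 0.52 and 0.36 without KO library 4. Sdhd, a membrane anchor of succinate dehydrogenase, had 228, 258, 255 and 216 FPKM in the KO libraries, against 173, 192, 209 and 157 FPKM in the WT libraries (log2 difference 0.39, limma adjusted p = 0.173). Of 31 proteasome genes 30 were positive with a median of 0.19, none passed with limma or voom, and 9 had unadjusted p under 0.05 and were higher (8.77% of all genes). Psmb7, a catalytic beta subunit, averaged 23.3 ± 1.91 FPKM in KO MPPs and 17.7 ± 1.84 FPKM in WT MPPs (SD, n = 4 each). Ribosomal protein genes had a median of 0.05 over 77 genes, with 1 gene at unadjusted p under 0.05, and its sign was not stable: the median was -0.06 after quantile normalization, 0.19 without KO library 4 and -0.03 without WT library 4.

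Erythroid genes had larger differences and much larger spread. Of 40 tested, 34 were positive, the median log2 difference was 0.88, and 11 had KO libraries wholly above WT (5.08% of all genes). None passed with limma, and 23 had unadjusted p under 0.05 and were higher (8.77% of all genes). Voom passed 3, all higher (65 of all 13916 genes). Without KO library 4 the median was 1.01 and 2 passed, higher (0.819% of all genes). The median was 0.36 without WT library 1 and 0.40 without KO library 2. Gata1, the erythroid, megakaryocyte and mast cell transcription factor, had 21.3, 25.4, 22.6 and 20.3 FPKM in the KO libraries, against 1.81, 10.7, 15.5 and 7.94 FPKM in the WT libraries. The WT values spanned a wide range, with WT library 1 far below the rest, and the log2 difference was 1.48 (0.54 to 2.42, limma adjusted p = 0.139). Klf1, the erythroid Kruppel-like factor, overlapped between the groups at 47.7 ± 9.83 FPKM in KO MPPs and 24.3 ± 15.2 FPKM in WT MPPs (SD, n = 4 each). Epor, the erythropoietin receptor, had 17.7, 22.4, 17.0 and 13.7 FPKM in the KO libraries, against 2.39, 5.97, 14.2 and 7.25 FPKM in the WT libraries. Tfrc, the transferrin receptor that imports iron, was tighter, with 17.8, 21.4, 20.3 and 12.6 FPKM in the KO libraries, against 7.49, 8.68, 10.9 and 7.53 FPKM in the WT libraries. Its log2 difference was 0.97 (0.58 to 1.36), its limma adjusted p was 0.0514, and without KO library 4 it was 0.0124. Car2, carbonic anhydrase 2, averaged 592 ± 63.9 FPKM in KO MPPs and 332 ± 83.0 FPKM in WT MPPs (SD, n = 4 each). The summed level of the 3 erythroid markers Alas2, Slc4a1 and Hbb-bs ran from 133 to 1915 FPKM in KO and from 61.5 to 1103 FPKM in WT libraries. The part of such cells in the result was not tested, and in bulk samples more cells of a type and more RNA per cell cannot be told apart.

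The list of mast cell, basophil and eosinophil genes had the largest median of all lists. Of 15 tested genes 14 were positive, the median log2 difference was 1.40, 3 had KO libraries wholly above WT (5.08% of all genes), and Cpa3 passed (0.0287% of all genes passed as higher). Without KO library 4 the median was 1.73 and 3 passed, higher (0.819% of all genes). Over left-out libraries the median ran from 1.09 without KO library 2 to 2.21 without WT library 3. The mean level of the whole list overlapped between groups. It was 4.79, 5.22, 2.57 and 3.63 in KO libraries and 1.65, 2.24, 3.73 and 3.09 in WT libraries. Mcpt8, the basophil protease, had 28.6, 20.5, 21.0 and 9.18 FPKM in the KO libraries, against 1.37, 4.58, 5.201 and 1.31 FPKM in the WT libraries. Its 4 KO values were all above its 4 WT values, the log2 difference was 2.39 (1.53 to 3.25), the limma adjusted p was 0.0514, and without KO library 4 it was 0.0123. Prss34, another basophil protease, had 14.6, 14.2, 8.60 and 0.615 FPKM in the KO libraries, against 0, 2.36, 1.56 and 0 FPKM in the WT libraries, so KO library 4 lay inside the WT range. Il1rl1, the IL-33 receptor of mast cells and basophils, averaged 1.90 ± 0.813 FPKM in KO MPPs and 0.754 ± 0.330 FPKM in WT MPPs (SD, n = 4 each). No WT library reached 1 FPKM for Il1rl1, so it met the filter through the KO libraries alone and could only be higher. It is counted among the 14 positive genes and the 3 with KO libraries wholly above WT. The 4 defining markers Mcpt8, Cpa3, Ms4a2 and Prss34 summed to 63.3, 53.7, 45.2 and 22.5 FPKM in KO and 6.57, 12.1, 13.1 and 7.31 FPKM in WT libraries. Cpa3 has 1 GATA motif, shown because GATA factors act in mast cells: AGATAA is in capitals, the window is chr3:20242132-20242431 on the minus strand, and the sequence runs 5′ to 3′.
Cpa3: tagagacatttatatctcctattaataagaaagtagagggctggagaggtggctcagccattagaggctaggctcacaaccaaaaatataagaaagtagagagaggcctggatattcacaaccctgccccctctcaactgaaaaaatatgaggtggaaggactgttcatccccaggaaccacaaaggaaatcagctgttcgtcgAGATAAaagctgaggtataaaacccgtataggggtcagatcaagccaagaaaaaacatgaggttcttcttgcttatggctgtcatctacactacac
AGATAA, searched on both strands, occurred in 4 of 15 promoters of the mast cell, basophil and eosinophil list (26.7%). It occurred in 8 of 30 erythroid list promoters (26.7%), against 7.86% of tested genes and 12.7% of all promoters.

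**Figure D4:**
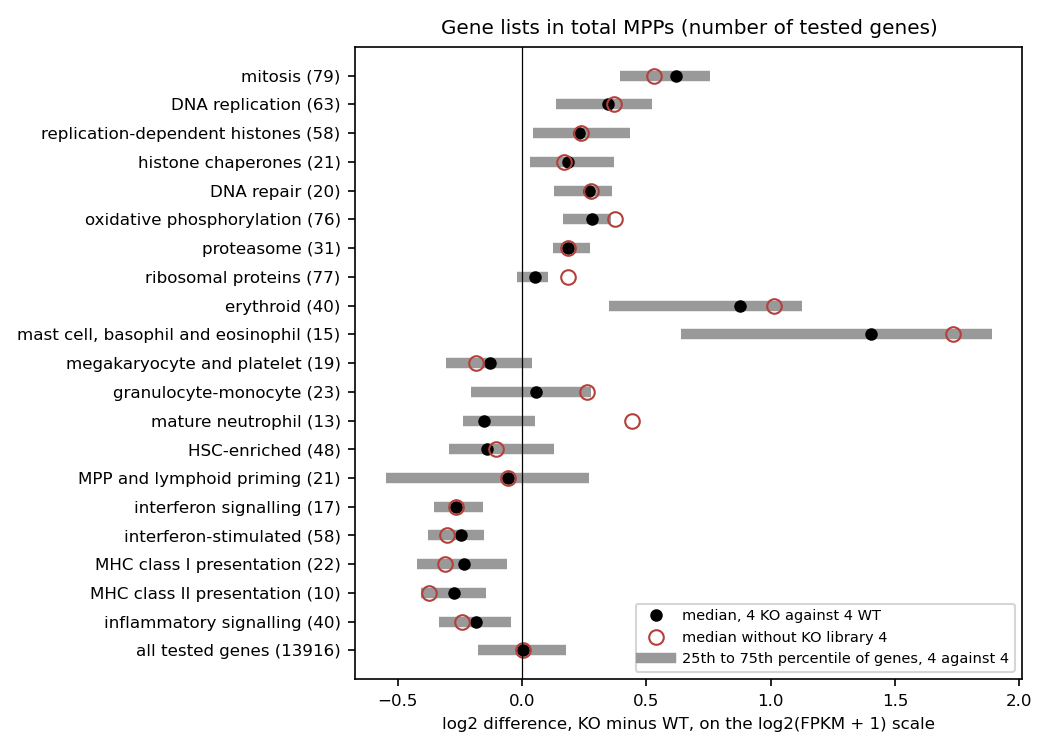
Median log2 difference, KO minus WT, of 20 gene lists and of all tested genes in MPPs, as filled points with the 25th to 75th percentile of genes as bars; open circles are medians without KO library 4. The mitosis list, the erythroid list and the list of mast cell, basophil and eosinophil genes lie to the right of 0. The interferon and MHC lists lie to the left, while the neutrophil median changes sign without KO library 4.

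The interferon and antigen presentation genes leaned the other way. Of 58 tested interferon-stimulated genes, 51 had a negative difference (49.6% of all tested genes did), with a median of -0.25. None passed with limma, and 14 lower (7.79% of all genes) and 2 higher (8.77%) had unadjusted p under 0.05. Voom passed 1, lower (48 of all 13916 genes), and 1 passed without KO library 4, lower (0.704% of all genes). The mean level was 3.50, 3.63, 3.52 and 3.71 in KO and 4.08, 3.79, 3.66 and 3.85 in WT libraries, so that KO library 4 was above WT library 3. Isg15, the ubiquitin-like protein, had 6.94, 9.29, 8.10 and 8.10 FPKM in the KO libraries, against 20.2, 10.2, 13.7 and 14.3 FPKM in the WT libraries. Its KO values lay below its WT values, and the log2 difference was -0.74 (-1.14 to -0.34, limma adjusted p = 0.0956). Ifi44 had 3.50, 4.77, 4.44 and 5.18 FPKM in the KO libraries, against 8.87, 8.15, 6.12 and 9.20 FPKM in the WT libraries (log2 difference -0.73, limma adjusted p = 0.0686). Of 17 interferon signalling genes 15 were negative, with a median of -0.27. Tyk2, a kinase of the interferon receptor, averaged 6.53 ± 0.114 FPKM in KO MPPs and 9.21 ± 1.46 FPKM in WT MPPs (SD, n = 4 each). The Isg15 promoter is shown for its 3 overlapping GAAANNGAA matches, a core of the interferon-stimulated response element (N is any base), in capitals, at chr4:156200769-156201068 on the minus strand.
Isg15: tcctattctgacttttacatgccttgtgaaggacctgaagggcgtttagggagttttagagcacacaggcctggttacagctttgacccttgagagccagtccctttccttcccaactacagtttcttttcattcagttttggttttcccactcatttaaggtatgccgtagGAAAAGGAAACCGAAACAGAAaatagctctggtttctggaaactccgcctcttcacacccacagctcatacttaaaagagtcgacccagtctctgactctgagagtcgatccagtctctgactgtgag
That motif, on both strands, was in 26 of 45 interferon-stimulated gene promoters (57.8%), against 8.78% of tested genes and 9.76% of all promoters.

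MHC class I presentation genes were lower by similar sizes: 19 of 22 were negative with a median of -0.23, 5 had KO libraries wholly below WT (4.84% of all genes), none passed with limma or voom and 8 had unadjusted p under 0.05 and were lower (7.79% of all genes). Without KO library 4, 2 passed, lower (0.704% of all genes). H2-Q7, a non-classical class I gene, had 79.5, 72.9, 67.0 and 80.2 FPKM in the KO libraries, against 105, 123, 91.7 and 106 FPKM in the WT libraries (log2 difference -0.50, limma adjusted p = 0.0953). H2-Q7 and its neighbour H2-Q4 are close paralogs, and reads could be split between them. H2-T22 averaged 18.4 ± 2.23 FPKM in KO MPPs and 24.7 ± 0.960 FPKM in WT MPPs (SD, n = 4 each). Nlrc5, the transactivator of class I genes, averaged 6.88 ± 1.04 FPKM in KO MPPs and 9.85 ± 0.626 FPKM in WT MPPs (SD, n = 4 each). Of 40 inflammatory signalling genes 32 were negative, with a median of -0.18, and 1 passed without KO library 4, lower (0.704% of all genes). Tlr7, a receptor for single-stranded RNA, had 1.25, 0.724, 0.833 and 2.54 FPKM in the KO libraries, against 5.01, 3.72, 3.05 and 3.14 FPKM in the WT libraries, and KO library 4 was the highest of the KO libraries (log2 difference -1.06, limma adjusted p = 0.0759). Il1r1, the IL-1 receptor, averaged 5.17 ± 0.757 FPKM in KO MPPs and 8.21 ± 1.28 FPKM in WT MPPs (SD, n = 4 each).

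**Figure D5:**
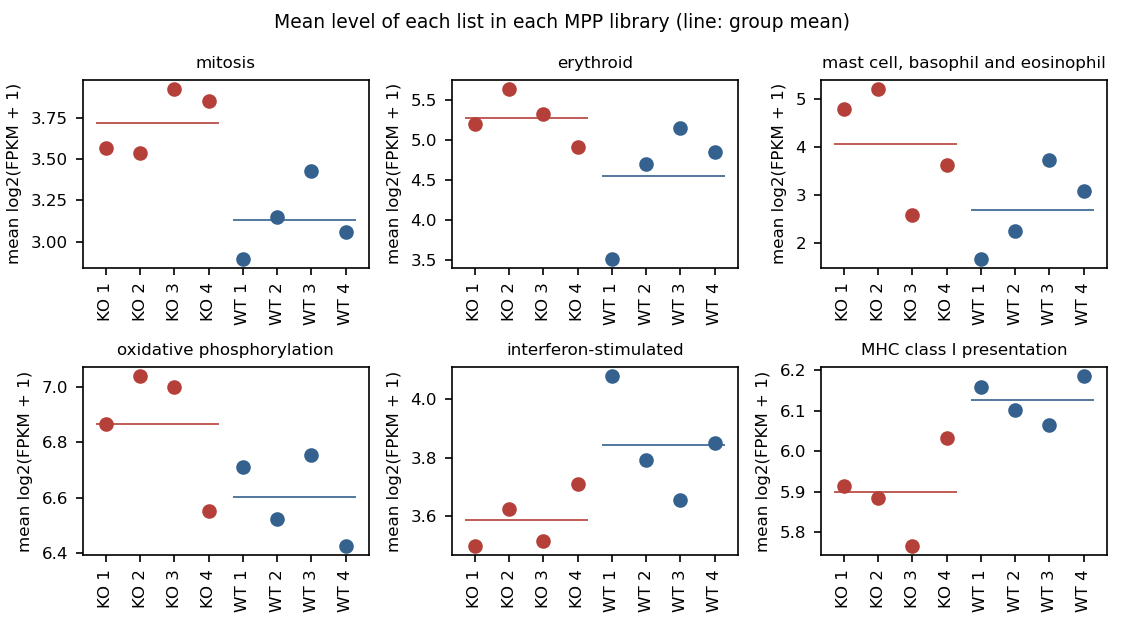
Mean level of 6 gene lists in each of the 8 MPP libraries, KO libraries on the left and WT on the right, as mean log2(FPKM + 1) with the group mean as a line (the axes do not start at 0). The mitosis list does not overlap between groups, and KO library 4 falls among WT libraries for oxidative phosphorylation.

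Genes of the progenitor hierarchy split. Flt3, the receptor tyrosine kinase that marks lymphoid-primed MPPs, had 30.8, 32.6, 31.1 and 43.1 FPKM in the KO libraries, against 52.3, 51.6, 52.4 and 60.2 FPKM in the WT libraries. Its KO values lay below its WT values, with library 4 the highest of each group; the log2 difference was -0.65 (-0.93 to -0.36), the limma adjusted p was 0.0573, and without KO library 4 it was 0.0157. Dntt, the terminal transferase of early lymphoid cells, had the opposite sign, with 87.4, 88.6, 87.2 and 119.9 FPKM in the KO libraries, against 63.4, 41.7, 40.4 and 47.5 FPKM in the WT libraries. Its log2 difference was 0.98 (0.62 to 1.35, limma adjusted p = 0.0514). Tespa1, a thymocyte-associated protein, had 23.8, 21.7, 26.5 and 27.5 FPKM in the KO libraries, against 48.0, 41.7, 33.8 and 46.2 FPKM in the WT libraries (log2 difference -0.74, limma adjusted p = 0.0514). Over the 21 MPP and lymphoid priming genes the median was -0.06, with 9 positive, and it ran from -0.14 without KO library 1 to -0.03 without WT library 1. Voom passed 1 higher and 2 lower (65 and 48 of all 13916 genes). Limma without KO library 4 also passed 1 higher and 2 lower (0.819% and 0.704% of all genes). Among the 48 HSC-enriched genes 31 were negative with a median of -0.14, or -0.08 without WT library 2. Without KO library 4, 1 passed, lower (0.704% of all genes). Ly6a, the Sca-1 antigen that interferon also raises, had 102, 117, 97.1 and 102 FPKM in the KO libraries, against 188, 173, 148 and 129.8 FPKM in the WT libraries, and its groups did not overlap (log2 difference -0.60, limma adjusted p = 0.0768). Granulocyte-monocyte genes had a median of 0.06 over 23 genes, and its sign was not stable: it was 0.26 without KO library 4, -0.06 without WT library 1 and -0.02 after rescaling to one total.

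Of the 11 genes that fell, 3 are protein-coding genes with ample reads. Tmem158 (chr9:123259053-123260764, minus strand), a transmembrane protein induced by Ras signalling, had 1.598, 1.24, 1.61 and 1.71 FPKM in the KO libraries, against 5.18, 7.06, 5.40 and 5.74 FPKM in the WT libraries. Every KO library lay below every WT library, and the log2 difference was -1.43 (-1.74 to -1.11, limma adjusted p = 0.0111). Fam69b (chr2:26628457-26636497), of a family of protein-kinase-like proteins, had 11.4, 12.8, 13.2 and 11.9 FPKM in the KO libraries, against 25.6, 20.2, 27.3 and 24.1 FPKM in the WT libraries (log2 difference -0.92, limma adjusted p = 0.0267). Another annotated gene overlaps Fam69b on the same strand, so its reads could be split. Slc16a13, of the monocarboxylate transporter family, had 3.95, 3.85, 4.54 and 4.44 FPKM in the KO libraries, against 8.95, 7.65, 7.04 and 8.89 FPKM in the WT libraries (log2 difference -0.81, limma adjusted p = 0.0475).

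Another 4 of the fallen genes lie on one stretch of chromosome 5, chr5:11022260-11769308, which spans 747 kb. They are the long noncoding RNAs Gm43492, Gm43643 and 1700003C15Rik and the processed pseudogene RP23-92D22.3. RP23-92D22.3 had 0.632, 2.11, 1.16 and 5.66 FPKM in the KO libraries, against 18.6, 21.8, 20.4 and 17.9 FPKM in the WT libraries. Gm43643 had 0.459, 0.0953, 0.860 and 2.96 FPKM in the KO libraries, against 8.85, 11.8, 10.4 and 9.54 FPKM in the WT libraries. Both were highest in KO library 4 among the KO libraries, and still below every WT library. 1700003C15Rik had 7, 12, 26 and 10 reads in KO libraries and 148, 140, 116 and 149 in WT libraries. Gm43492 had 1, 1, 2 and 15 reads in KO libraries and 31, 26, 32 and 54 in WT libraries. For 1700003C15Rik and Gm43492 no KO library reached 1 FPKM. Both met the filter through the WT libraries alone, and so could only be lower in KO. The stretch was bounded by these 4 genes after their values were seen, and they are among its 12 tested genes. All 12 were negative (49.6% of all genes) and 10 had KO libraries wholly below WT (4.84% of all genes). The median log2 difference was -1.20. Since the bounds and some members were set by low KO values, these counts are no test of the stretch. Gm43643 and RP23-92D22.3 overlap on opposite strands, and whether the libraries keep strand is not given in the sources used here, so reads of the pair cannot be told apart. Several of the genes are annotated as pseudogenes or unnamed copies, so reads of near-identical copies may also be shared between them. In HSCs of the same cohort only 1 of the 12 genes reached the filter.

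The last 4 fallen genes are very short or rest on few reads. Trbd1 and Trbj1-5 are germline pieces, diversity and joining, of the T cell receptor beta chain, and Mir5123 is a microRNA gene inside B4galt1 on the same strand. They are shown to make plain how little sequence each value rests on: both receptor pieces from GENCODE M21 whole, and the mature microRNA from RefSeq with its seed, bases 2 to 8, in capitals.
Trbd1: gggacagggggc
Trbj1-5: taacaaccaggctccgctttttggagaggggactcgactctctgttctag
mmu-miR-5123: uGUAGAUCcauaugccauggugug
Trbd1 had 0 reads in every KO library and 6, 3, 1 and 2 reads in the WT libraries. Trbj1-5 had 0 reads in every KO library and 2, 3, 11 and 10 in the WT libraries. Mir5123 had 0 reads in every KO library and 2, 3, 3 and 4 in the WT libraries, at chr4:40850056-40850138. At lengths of 12, 50 and 83 bases such counts are enough to reach the FPKM minimum. Trbd1, Trbj1-5 and Mir5123 met the filter through the WT libraries alone. Genes admitted in that way can only be lower in KO. Gm24620, a small nucleolar RNA gene of 130 bases within Kif13a on the same strand, had 7, 9, 4 and 7 reads in KO libraries and 38, 22, 17 and 33 in WT libraries. Of the T and NK cell markers, Cd3d reached 0.216 FPKM, Cd3g 0.806 FPKM and Ncr1 0.370 FPKM at most, while Klrb1c lay between 0.942 and 2.44 FPKM in all 8 libraries.

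Some genes outside the lists stood next to the threshold. Gm26623 had 74.1, 77.4, 84.4 and 80.6 FPKM in the KO libraries, against 42.1, 43.1, 57.9 and 47.0 FPKM in the WT libraries, Rpp30, a subunit of RNase P, averaged 46.8 ± 4.41 FPKM in KO MPPs and 27.3 ± 3.73 FPKM in WT MPPs (SD, n = 4 each), and Agpat2, an enzyme of phospholipid synthesis, averaged 17.6 ± 2.27 FPKM in KO MPPs and 27.9 ± 0.542 FPKM in WT MPPs (SD, n = 4 each), all without overlap. Lag3, an inhibitory receptor of lymphocytes, had 6.09, 7.18, 5.28 and 8.52 FPKM in the KO libraries, against 19.3, 14.4, 11.9 and 24.2 FPKM in the WT libraries (log2 difference -1.22, limma adjusted p = 0.0514).

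The MPP difference was then set against the KO minus WT difference in HSCs, each taken within its own table since the tables were scaled separately. Of 13166 genes measured in both, 1 passed the test of the difference between the effects (0.0076%), Mir3060. It had a log2 difference of -1.42 in HSCs and 0.00 in MPPs (adjusted p = 0.0262, limma), and 3 to 6 reads per MPP library. In HSCs it was listed at 0 in all 4 KO libraries and at 2.04, 1.99, 1.54 and 1.25 FPKM in the WT libraries. Without KO library 4 of the MPPs, 0 genes passed with limma and 1188 had unadjusted p under 0.05. Tmem158 had -1.43 in MPPs and -0.12 in HSCs, an MPP minus HSC value of -1.31 (-1.76 to -0.86, limma adjusted p = 0.0727). Asf1b had 0.97 in MPPs and 0.00 in HSCs, an MPP minus HSC value of 0.97 (0.60 to 1.34, limma adjusted p = 0.117). Kpna2 gave 0.82 (0.38 to 1.26, limma adjusted p = 0.309) and Slc16a13 gave -0.83 (-1.17 to -0.49, limma adjusted p = 0.194) for the same quantity. Flt3 gave -0.07 (-0.61 to 0.47, limma adjusted p = 0.975). None of Tmem158, Asf1b, Kpna2, Slc16a13 and Flt3 passed, so no difference between populations was detected for them. Tespa1 did not pass that test either, at 0.83 (0.36 to 1.30, limma adjusted p = 0.366). It was lower in both populations, with -0.74 in MPPs and -1.57 in HSCs, and it passed in HSCs (limma adjusted p = 0.00546).

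The lists are given side by side without a test of the list. The mitosis median was 0.62 in MPPs and 0.10 in HSCs, with 58 of 79 positive there. For DNA replication it was 0.35 in MPPs and -0.10 in HSCs, with 17 of 63 positive. Oxidative phosphorylation had 0.28 in MPPs and 0.04 in HSCs. Interferon-stimulated genes had -0.25 in MPPs and -0.15 in HSCs, with 8 of 57 positive, and MHC class I genes had -0.23 in MPPs and -0.26 in HSCs. Erythroid genes had 0.88 in MPPs and 0.26 in HSCs, with 29 of 38 positive there. Mast cell, basophil and eosinophil genes had 1.40 in MPPs and 0.35 in HSCs, with 5 of 6 positive there. In MPPs of the second cohort, killed later, at 15 days from the final injection, and split by H2B-GFP, mitosis had a median of -0.21 in GFP-high and 0.03 in GFP-low cells, and interferon-stimulated genes had -0.28 in GFP-high and -0.31 in GFP-low cells. DNA replication had -0.21 and -0.09 there, erythroid genes 0.19 and 0.63, and mast cell, basophil and eosinophil genes 0.77 and -0.11. In GFP-low MPPs 5 of 38 erythroid genes passed (0.32% of all genes), and 5 of 10 mast cell, basophil and eosinophil genes were positive. None of the 15 genes passed the limma test in any of the other 5 tables, where 6 to 8 of them reached the filter. The share of all genes that passed there was 0.124% in HSCs, 0.0276% in GFP-high HSCs and 0.32% in GFP-low MPPs, and 0 in GFP-low HSCs and GFP-high MPPs. Of the 15 genes, the direction was the same as here for 6 of 8 in HSCs, 5 of 6 in GFP-low MPPs, 3 of 6 in GFP-high MPPs, 2 of 7 in GFP-low HSCs and 4 of 7 in HSCs with high GFP. At unadjusted p under 0.05 there were 4 of the 15 in HSCs, 4 in GFP-low MPPs, 1 in GFP-high MPPs, 1 in GFP-low HSCs and 0 in HSCs with high GFP.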

How the data were processed

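RNA from 2500 sorted cells per library was converted to cDNA with SMART-Seq2 and made into libraries with Nextera XT, per the labels' protocols. STAR, DESeq2, HOMER and the mouse build mm10 are named in the submitters' processing notes, with no role or version. The deposited values are FPKM per gene. In the MPP table all 8 libraries share one median ratio to the gene geometric mean, so levels were compared within a table only. FPKM steps gave whole reads for 100.0% of genes within 0.01 of a read, and 81.3% of genes then had the GENCODE M21 exon length.

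Genes with at least 1 FPKM in at least 4 libraries were tested with limma 3.58.1 (R 4.3.3; trend, robust off) on log2(FPKM + 1), KO against WT without a block, and p-values were adjusted by Benjamini-Hochberg over all genes tested. Fold changes on that scale understate changes of low genes. Gene coordinates come from GENCODE M21 on mm10, promoters and the microRNA from RefSeq. In simulated data the fit was checked for recovery of known changes. No 2 libraries of a group agreed within sampling noise: the lowest chi-square per gene was 29.1. Reads are not unique molecules. The alternatives were another pseudocount, other filters, other scalings, quality weights, voom on recovered reads, a replicate block and leaving out libraries.

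The members and lists were chosen with earlier results of these data known. Named genes are those past the test, up to 4 members per list with the smallest p in the direction of its median plus defining genes, the HIRA and H3.3 genes, and outside the lists the 5 higher and 5 lower genes with the smallest p, no overlap and a mean log2 level of at least 3; not all of them are printed, and a few genes are not reported here.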

Additional observations from a re-analysis of the deposited data

Results flagged for a closer look

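In 254 groups of 4 libraries checked, 1 library was far from the other 3 by Dixon's criterion (the gap to the nearest library as a share of the range) in 10 cases. Chance gives about 5% of groups. KO library 4 was the highest KO library for Dntt (119.9 FPKM, gap 0.956 of the range), Flt3 (43.1 FPKM, 0.853), Gm43492 (0.549 FPKM, 0.917) and H2-T22 (21.7 FPKM, 0.936). KO library 4 was also the lowest for the mean level of MPP and lymphoid priming genes (4.01 on the log2 scale, 0.844) and of ribosomal protein genes (8.88, 0.874).

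KO library 3 was lowest for H2-Eb1 (8.97 FPKM, 0.967) and KO library 1 for H3f3b (485 FPKM, 0.845). WT library 4 was the highest WT library for Flt3 (60.2 FPKM, 0.907) and WT library 1 the lowest for Il1rl1 (0.264 FPKM, 0.842). The KO effect on Mir3060 differed between MPPs and HSCs by the test of the difference itself (adjusted p = 0.0262, limma), with 3 to 6 reads per MPP library.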

How the results depend on the processing

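The number of genes past the test was 15. It was 7 with a pseudocount of 0.1, 0 with no filter on low values (26598 genes tested, 3042 at unadjusted p under 0.05, limma), 88 with a filter of 5 FPKM (8390 tested), 14 with the libraries rescaled to one total, 13 after quantile normalization, 247 with quality weights and 113 with voom. Leaving out each library in turn gave 0 to 212 genes. Without KO library 4 and WT library 4 together, a choice made after seeing the data, it gave 43. The 5 FPKM filter and voom passed more genes higher than lower, 57 and 31 for the filter and 65 and 48 for voom, where the reported fit had 4 and 11. The causes were not tested. The replicate block gave 137 genes, but the numbers share no known origin: deviations of same-numbered KO and WT libraries correlated at 0.045, -6.7e-05, -0.032 and 0.28.

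The Hira difference kept its sign in every refit (-0.163 to -0.0145 over left-out libraries). The test of MPP against HSC effects had 1 gene, 0 with the block within cell type (1085 at unadjusted p under 0.05, limma) and 0 without MPP KO library 4. Ubn2 (0.06) changed sign with one total (-0.00428) and without KO library 3, over a range of -0.0472 to 0.141 across left-out libraries. Of the other values of named genes under alternatives, 1282 kept their side of the threshold, 137 moved past it and 108 no longer passed. The median of mature neutrophil genes was -0.15 and was 0.44 without KO library 4. With 4 libraries a group, genes of few reads, Trbd1, Trbj1-5, Mir5123 and Gm24620 among them, are limited by depth.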
